A study of Mus musculus with 18 samples.

Results

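Cholesterol and the isoprenoids are built from acetyl-CoA through mevalonate, and the 8 enzymes described here, Pmvk, Hmgcs1, Mvk, Mvd, Idi1, Fdps, Fdft1 and Sqle, carry out steps of that route up to the oxidation of squalene. Their mRNA abundance was taken from every probeset of the MOE430A and MOE430B chips whose annotation gives one of them as its gene. That was 19 of 45037 probesets, and 8 of 18193 genes. Of the 19, 18 were on MOE430A and 1 on MOE430B, 16 were bright enough to be tested, and 3 were too dim. The genes were chosen by function with earlier results of these arrays in view, and the rule compares the same groups. Levels and changes of the 8 genes between groups are therefore given as descriptions, with their errors and without p-values.

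Gracilis muscle, a thin muscle of the inner thigh, came from male C57BL/6J mice. They were 3 to 5 wk of age at the start, before acclimation and the daily injections. C mice had 10 days of vehicle, 24 h mice had 9 days of vehicle and 1 of clenbuterol, and 10 D mice had 10 days of clenbuterol, a beta2-adrenergic agonist given at 1 mg/kg by injection, with tissue taken 24 h after the last dose. Each group had 3 pools of RNA from 3 mice, and each pool was put on both chips, which made 18 arrays. The study chose mice for the arrays by how far their weight gain and blood urea nitrogen differed, so the animals are selected ones, and a pool does not show how its 3 mice varied. Pool 2 of the 24 h group and pool 2 of the 10 D group stood apart from their groups alike: across the MOE430A probesets their deviations from the group means had a correlation of 0.56. For pool 1 of these groups it was 0.39, and for pool 3 it was 0.10. The array medians of both pools numbered 2, 35.7 and 33.6 on MOE430A, were the lowest of their groups, and results that rest on these pools are also given without them.

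Hydroxymethylglutaryl-CoA synthase (Hmgcs1) makes the precursor of mevalonate, mevalonate kinase (Mvk) and phosphomevalonate kinase (Pmvk) phosphorylate mevalonate in turn, and mevalonate diphosphate decarboxylase (Mvd) yields isopentenyl diphosphate. Isopentenyl diphosphate isomerase (Idi1) and farnesyl diphosphate synthase (Fdps) lead to farnesyl diphosphate, from which squalene synthase (Fdft1) and squalene epoxidase (Sqle) start the sterol branch, while prenylated proteins, ubiquinone and dolichol take the other branches. In many tissues these genes are driven together by the SREBP transcription factors when sterols are scarce. Skeletal muscle depends on the route also for the prenylation of proteins, and drugs that block it can harm muscle.

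Of the 8 enzymes, Pmvk stood furthest from C at 24 h, and its 10 D pools lay within the range of the C pools. A level is the signal of a probeset over the median of all signals on that array. Pmvk (1427893_a_at, its only probeset) had levels of 1.44, 1.87 and 1.23 in the C pools, 19.8, 6.23 and 23.8 in the 24 h pools, and 1.48, 1.26 and 1.55 in the 10 D pools. Every 24 h pool was above every other pool, and pool 2 was the lowest of the 24 h pools. Whole muscle was measured, so a change in the number of cells of a type and a change in RNA per cell cannot be told apart. The means were 1.51 ± 0.323 (SD, n = 3) in C, 16.6 ± 9.22 (SD, n = 3) at 24 h and 1.43 ± 0.149 (SD, n = 3) at 10 D. On the log2 scale Pmvk was higher by 3.27 at 24 h (SE 0.44, 95% confidence interval 2.30 to 4.24), or 9.62-fold. This ranked 13 from the top among the 33752 tested probesets. At 10 D it differed from C by -0.06 (95% confidence interval -1.03 to 0.91) and from 24 h by -3.33 (SE 0.44).

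Mvk, which acts just before Pmvk, was measured by a dim probeset that was bright enough to be tested only through its 24 h pools. Its tested probeset (1418052_at) had levels of 0.247, 0.0939 and 0.220 in C, 0.818, 0.367 and 1.56 at 24 h, with 0.224, 0.280 and 0.283 at 10 D. The 24 h pools were again above all others, with pool 2 again the lowest of them. The log2 change was 2.18 at 24 h (SE 0.63, 95% confidence interval 0.78 to 3.57), and a probeset kept for its 24 h signals had to differ in that direction. At 10 D the change was 0.60, with an interval from -0.80 to 2.00. The mean signal of this probeset was 15.7, against a lower limit of 14.1 for testing on this chip. Its signals were 6.10 to 9.40 in C, 13.1 to 79.8 at 24 h and 9.40 to 19.8 at 10 D, so every C pool was below the limit. The change at 24 h was 1.19 when 16 was added to the scaled signals before the logarithm. With 24 h pool 1 or pool 3 left out the probeset was below that limit. The other Mvk probeset (1430619_a_at) was too dim to test, with levels from 0.0628 to 0.342.

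The tested probesets of Pmvk and Mvk were both highest in the 24 h pools, and the bases before their annotated starts are shown, with those of Hmgcs1, whose window was the only one to hold a match to the SREBP motif. The sequences are from RefSeq (GRCm38.p6), 250 bases upstream of the start, read 5′ to 3′ on the strand of the gene, here the plus strand for all 3 genes. Capitals mark CCAAT on either strand, the core of the NF-Y motif, and in Hmgcs1 also TCACNCCAC, the SREBP motif, on the plus strand. The regions are chr3:89454291-89454540 for Pmvk (the first of 2 annotated starts), chr5:114444019-114444268 for Mvk and chr13:119690101-119690350 for Hmgcs1.
Pmvk: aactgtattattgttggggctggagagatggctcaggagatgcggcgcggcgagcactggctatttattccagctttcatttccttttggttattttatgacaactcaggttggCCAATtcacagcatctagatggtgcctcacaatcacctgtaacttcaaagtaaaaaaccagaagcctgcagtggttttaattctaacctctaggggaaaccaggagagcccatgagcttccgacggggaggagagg
Mvk: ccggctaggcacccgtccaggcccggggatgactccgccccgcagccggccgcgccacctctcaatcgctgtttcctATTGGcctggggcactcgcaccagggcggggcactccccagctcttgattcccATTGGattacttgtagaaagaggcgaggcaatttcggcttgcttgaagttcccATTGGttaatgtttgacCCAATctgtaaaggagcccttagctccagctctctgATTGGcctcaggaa
Hmgcs1: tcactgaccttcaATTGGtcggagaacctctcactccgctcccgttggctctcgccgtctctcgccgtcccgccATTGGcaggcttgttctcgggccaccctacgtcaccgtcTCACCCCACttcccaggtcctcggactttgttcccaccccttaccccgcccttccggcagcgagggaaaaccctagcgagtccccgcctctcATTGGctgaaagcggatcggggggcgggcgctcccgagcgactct

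Windows of 300 bases, with 50 bases after the start, were at hand for 5 of the 8 genes, and none for Fdps, Fdft1 and Sqle. CCAAT was found in 1 window of each of these 5 genes, once in Pmvk, 5 times in Mvk, 4 times in Hmgcs1 (1 of them after the start) and 2 times each in Mvd and Idi1. Of all 32851 promoter windows, 37.4% held it. The second Pmvk window held none of the motifs searched. The SREBP motif TCACNCCAC was held by 1.24% of all windows and, among the 5 genes, by Hmgcs1. The CREB motif TGACGTCA, which is bound by a factor downstream of cyclic AMP, was held by 1.79% of all windows and by none of the 5 genes. A match describes letters in a window and is not evidence of binding.

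**Figure D1:**
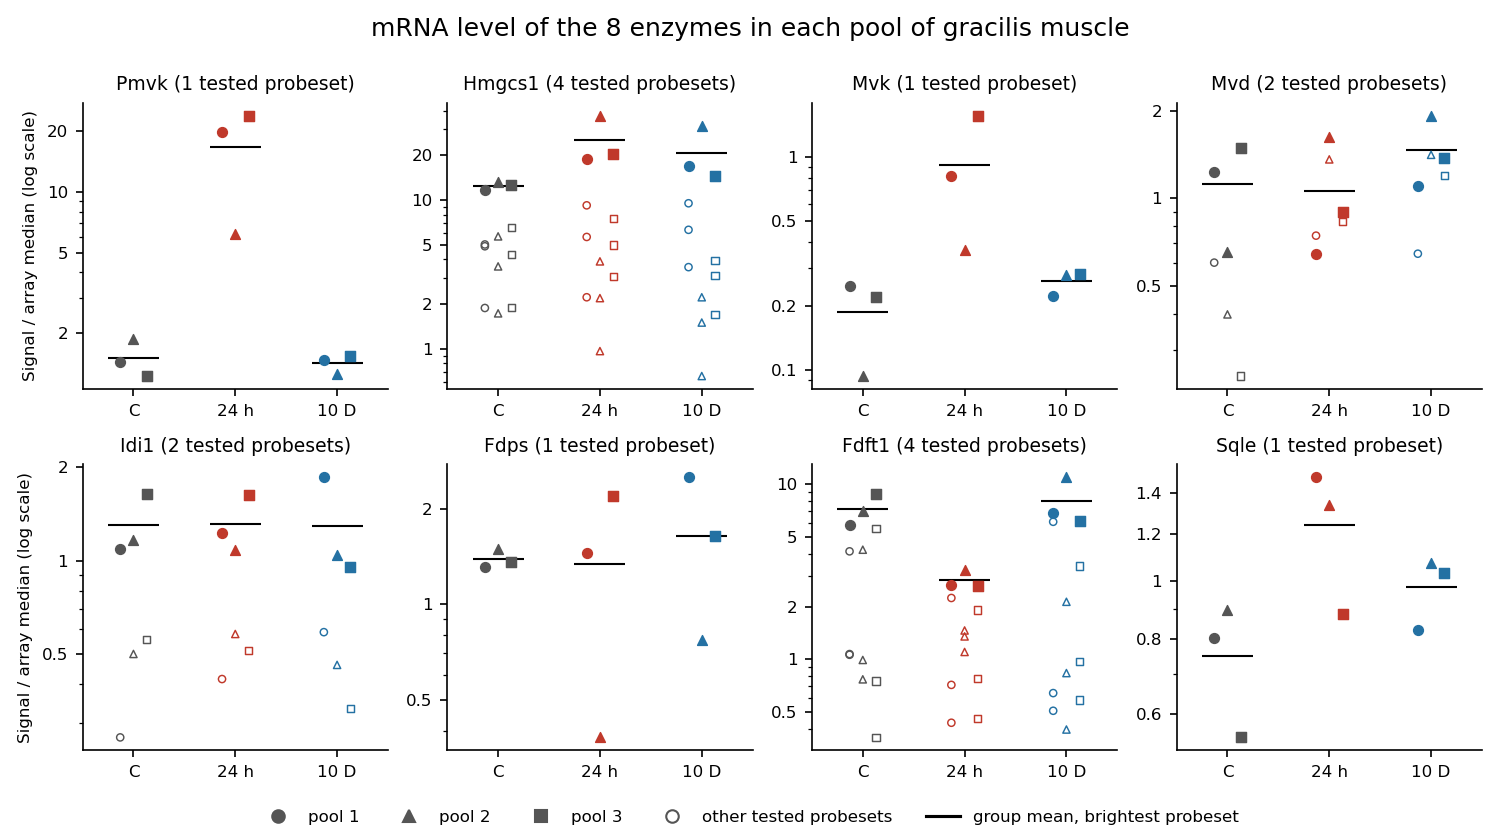
Level of each tested probeset (signal divided by array median, log axis) in the 9 pools, by gene; filled symbols are the brightest probeset of a gene with its group means as black lines, open symbols are its other tested probesets, and the symbol shape gives the pool number. Pmvk and Mvk are higher in every 24 h pool than in any C or 10 D pool, the brightest Fdft1 probeset is lower in every 24 h pool, and Idi1 and Fdps overlap between the groups.

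Hmgcs1, which commits acetyl units to the pathway, was higher in all treated pools than in C on 1 of its 4 tested probesets, and pool 2 of both treated groups lay in opposite places on that probeset and the other 3. On the brightest (1433443_a_at) the levels were 11.7, 13.2 and 12.6 in C, 19.0, 36.9 and 20.3 at 24 h, with 16.9, 31.4 and 14.5 at 10 D. All treated pools were above all C pools, and pool 2 was the highest in both treated groups. The log2 change was 0.96 at 24 h (SE 0.33, 95% confidence interval 0.22 to 1.70) and 0.66 at 10 D (95% confidence interval -0.08 to 1.40). With pool 2 of both treated groups left out, these changes were 0.65 and 0.33.

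The other 3 tested Hmgcs1 probesets overlapped between groups. Their log2 changes were 0.19 (1433445_x_at), -0.11 (1433444_at) and 0.02 (1433446_at) at 24 h. At 10 D they were -0.38, -0.47 and -0.22. Here pool 2 was the lowest in both treated groups, opposite to its place on the brightest probeset. With both of these pools left out the 3 changes were 0.55, 0.32 and 0.50 at 24 h, and 0.11, 0.06 and 0.42 at 10 D, all above 0 like those of the brightest probeset (0.65 and 0.33). So 1 sign at 24 h and all 3 at 10 D turned. On 1433446_at, for example, the levels were 1.88, 1.73 and 1.90 in C, 2.22, 0.964 and 3.06 at 24 h, with 3.54, 0.655 and 1.70 at 10 D. The dim Hmgcs1 probeset (1441536_at, on MOE430B) had levels from 0.101 to 0.995. The place of the probes along the transcripts is not analysed here.

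Mvd, the last step before isopentenyl diphosphate, differed between its probesets. On the brighter (1417303_at) the levels were 1.23, 0.653 and 1.49 in C, 0.641, 1.63 and 0.900 at 24 h, with 1.10, 1.92 and 1.38 at 10 D. The groups overlapped, with log2 changes of -0.12 at 24 h (95% confidence interval -1.05 to 0.82) and 0.43 at 10 D (95% confidence interval -0.50 to 1.36). On the dimmer (1448663_s_at, a kind of probeset that can match related transcripts) the levels were 0.601, 0.399 and 0.245 in C, 0.744, 1.36 and 0.834 at 24 h, with 0.645, 1.41 and 1.20 at 10 D. Here every treated pool was above every C pool, and the changes were 1.28 (SE 0.44) and 1.41 (SE 0.44). Without pool 2 of both treated groups they were 1.02 and 1.18, and those of the brighter probeset were -0.48 and 0.22.

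Idi1 and Fdps, which supply farnesyl diphosphate, did not separate the groups on any tested probeset. Idi1 (1451122_at) had levels of 1.09, 1.17 and 1.64 in C, 1.23, 1.08 and 1.63 at 24 h, with 1.86, 1.04 and 0.957 at 10 D. Its log2 changes were 0.01 (95% confidence interval -0.70 to 0.72) and -0.06 (95% confidence interval -0.77 to 0.65). The second Idi1 probeset (1423804_a_at) gave 0.24 and 0.09. Fdps (1423418_at) had levels of 1.31, 1.49 and 1.36 in C, 1.45, 0.381 and 2.19 at 24 h, with 2.51, 0.774 and 1.64 at 10 D. The C pools lay close together while pool 2 of each treated group was below all C pools and pool 3 of each above them. The log2 change was -0.38 at 24 h (95% confidence interval -1.72 to 0.97) and 0.09 at 10 D. It was 0.37 and 0.55 without pool 2 of both treated groups. The other Fdps probeset (1438150_at) was too dim to test, with levels from 0.00783 to 0.0685.

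Fdft1, which joins farnesyl units into squalene, was the one enzyme with tested probesets lower in every 24 h pool than in every C pool, 2 of its 4. The brightest (1438322_x_at) is, like the dimmer Mvd probeset, of a kind that can match related transcripts. Its levels were 5.88, 7.05 and 8.79 in C, 2.67, 3.25 and 2.63 at 24 h, with 6.89, 11.0 and 6.16 at 10 D. All 24 h pools were below all other pools. The log2 change was -1.33 at 24 h (SE 0.27, 95% confidence interval -1.92 to -0.74), which is 0.397 of C, and 0.12 at 10 D (95% confidence interval -0.47 to 0.71). The 10 D pools were higher than the 24 h pools by 1.45 (SE 0.27). A further Fdft1 probeset (1448130_at) had levels of 4.14, 4.23 and 5.62 in C, 2.24, 1.46 and 1.91 at 24 h, with 6.11, 2.13 and 3.41 at 10 D. Its change at 24 h was also -1.33 (SE 0.36), and at 10 D pool 2 lay within the range of the 24 h pools. The 2 dimmer probesets (1438918_at and 1438919_x_at) overlapped between groups, with changes of -0.13 and -0.04 at 24 h.

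Sqle, the first oxygen-dependent step, had levels of 0.805, 0.895 and 0.549 in C, 1.49, 1.34 and 0.883 at 24 h, with 0.830, 1.07 and 1.03 at 10 D on its probeset (1415993_at). Pool 3 at 24 h lay just below the highest C pool, so the groups overlapped. The log2 change was 0.72 at 24 h (SE 0.30, 95% confidence interval 0.04 to 1.39) and 0.40 at 10 D (95% confidence interval -0.27 to 1.08).

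**Figure D2:**
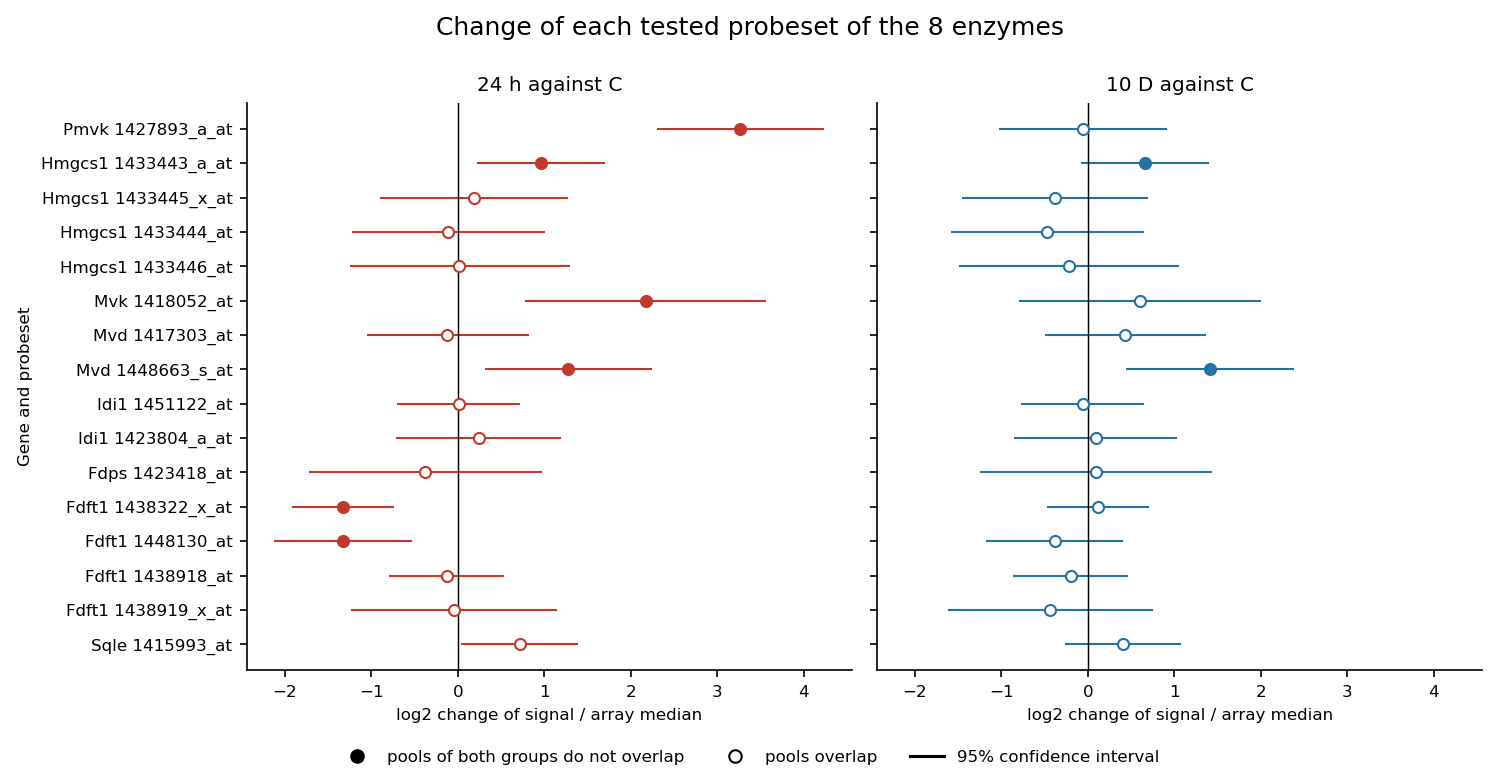
Log2 change of the 16 tested probesets at 24 h (left) and 10 D (right) against C, with 95% confidence intervals; filled points mark probesets whose pools do not overlap between the groups compared. At 24 h the changes run from -1.33 for Fdft1 to 3.27 for Pmvk, and at 10 D the interval of 1 probeset, Mvd 1448663_s_at, lies clear of 0.

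Across the 16 tested probesets 9 changes at 24 h were above 0 and 7 below. The median log2 change was 0.02 at 24 h and 0.02 at 10 D, beside 0.02 and 0.01 over all tested probesets. Without 24 h pool 2 the median at 24 h was 0.34. In a limma model of all 33752 tested probesets, with an adjusted p under 0.1 as the call, 1 of the 16 was called at 24 h (Pmvk), beside 0.456% of all probesets. At 10 D 0 of 16 were called, beside 0% of all probesets. Between 10 D and 24 h 1 of 16 was called (Pmvk), beside 0.0504% of all. At an unadjusted p under 0.05 limma gave 7 of the 16 at 24 h, 1 at 10 D and 4 between 10 D and 24 h. Over all tested probesets these counts were 2887, 1540 and 1848. Mvk, tested only through its 24 h pools, is among the 7 and the 4. These contrasts were in view when the genes were chosen, and nothing is read from the counts.

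Pools did not overlap between 24 h and C for 6 of 16 probesets, 4 higher (Pmvk, Hmgcs1, Mvk and Mvd) and 2 lower (both Fdft1), beside 16.8% of all probesets. The count includes Mvk, which was tested only through its 24 h pools. At 10 D against C this held for 2 of 16, beside 10.3% of all, and at 10 D against 24 h for 3 of 16 (Pmvk, Mvk and Fdft1), beside 9.27% of all. The pools within a group varied more at 24 h than in C. The median SD of the log2 level over the 16 probesets was 0.30 in C, 0.59 at 24 h and 0.48 at 10 D, beside 0.29, 0.40 and 0.44 over all tested probesets. At 24 h pool 2 was the lowest of its group on 8 of the 16 and the highest on 7.

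The call of Pmvk depended on which pools were used, as did the share of all probesets called. Its log2 change at 24 h lay between 2.90 and 3.87 in every alternative tried. Without C pool 1, 2 or 3 the log2 change at 24 h was 3.24, 3.43 and 3.13, and without 24 h pool 3 it was 2.90. In these 4 cases, and without moderation of the variance (3.27), Pmvk was not called. Of all probesets 0.0711%, 0.0711%, 0.107% and 0.0711% were called in the 4 cases, and 0.296% without moderation, beside 0.456% in the main model. The difference between 10 D and 24 h was not called without any 1 of the C pools (-3.33 each), 24 h pools 1 and 3 (-3.10 and -2.96) or 10 D pools 1 and 3 (-3.36 and -3.39), nor without an intensity trend or moderation. With these pools left out in turn, 0.00296% to 0.0267% of all probesets were called, beside 0.0504% in the main model. With pool 2 of the 24 h and the 10 D group left out, the changes at 24 h were 3.87 for Pmvk, 2.72 for Mvk and -1.43 for Fdft1. At 10 D the changes close to 0 of Pmvk, Idi1 and Fdft1 turned in sign without these pools, to 0.02, 0.06 (1451122_at) and -0.13 (1438322_x_at).

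The 8 skeletal muscle markers were all tested, and their summed level was 1790 to 2980 in C, 1600 to 2120 at 24 h and 1300 to 2350 at 10 D. The neutrophil list, with 5 of 6 markers tested, summed to 3.39 to 4.50 in C, 10.2 to 21.3 at 24 h and 4.57 to 6.01 at 10 D. It was above the C sums at both times and highest at 24 h, the time when Pmvk was highest. The 24 h peak was largely Lcn2, which other cells also make, and says little of the other markers. Lcn2 had levels of 0.205 to 0.738 in C and of at least 3.77 at 24 h, the lowest again in pool 2. Its mean level was 11.5 at 24 h and 0.610 at 10 D. S100a8 was called at 24 h (log2 change 4.34, SE 0.68, limma adjusted p = 0.044). At 10 D, when Pmvk lay within its C range, S100a8 had levels of 1.36, 1.47 and 0.468, still above all C pools (0.0354 to 0.205), with a change of 3.12 (SE 0.68, limma adjusted p = 0.74). S100a9, Ltf and Ngp overlapped between the groups, and no marker was at 0 on any array. In the myoblast list 1 of 6 markers was called, Myog (2.06, SE 0.34, limma adjusted p = 0.053). The sum of that list, 101 to 135 in C and 107 to 113 at 24 h, was mostly Des, with 94.5 to 126 and 92.7 to 99.7, and says little of the other markers. In the macrophage, adipocyte, fibroblast, endothelium, Schwann cell and keratinocyte lists 0 markers were called by limma at 24 h or 10 D. The shares of all probesets called were 0.456% and 0%. The summed levels of those lists overlapped between C and 24 h. Single markers did not all overlap: of the 52 tested markers of all lists 7 had 24 h pools apart from C, 6 higher and 1 lower, beside 16.8% of all probesets. Besides S100a8, Lcn2 and Myog these were the macrophage marker Cd68 (0.85, SE 0.27, limma adjusted p = 0.36, and -0.15 at 10 D), the endothelial Emcn (0.84, SE 0.23, limma adjusted p = 0.26), the myoblast Myf5 (1.04, SE 0.48, limma adjusted p = 0.60) and, lower at 24 h, the keratinocyte Krt10 (-1.64, SE 0.46, limma adjusted p = 0.27). At 10 D 5 of the 52 had pools apart from C, beside 10.3% of all probesets. Of them 2 were higher (Pmp22 and S100a8) and 3 lower (Kdr, Myod1 and Cidec). The part of these cell types in the levels of the enzymes was not tested.

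The genes outside the pathway whose pattern was nearest to that of Pmvk were Emd, Polh (a DNA polymerase that copies damaged templates), Ankrd1 (a titin-associated protein of striated muscle), Abra and Adamtsl5. Nearness was the root mean square difference of log2 levels over the 9 pools, each probeset centred on its C mean, and the differences were 0.65, 0.79, 0.85, 0.91 and 0.93. Emd, which encodes emerin of the inner nuclear membrane, had levels of 2.51, 2.77 and 2.73 in C, 14.7, 11.8 and 19.7 at 24 h, with 4.01, 3.45 and 2.89 at 10 D. Its 24 h pools lay above all others and closer together than those of Pmvk. Polh was dim, with a mean signal of 7.77 against a lower limit of 6.97 for testing on MOE430B. Like Mvk it may have been bright enough only through its 24 h pools, so little is read from its nearness. Its level in 24 h pool 2, 0.341, was below that in 10 D pool 2, 0.430. Polh was not called at 24 h (limma adjusted p = 0.36). Abra, an actin-binding protein of striated muscle, had levels of 22.1, 17.2 and 24.6 in C and 84.7, 103 and 88.0 at 24 h. Pbxip1, a gene next to Pmvk on the chromosome and named after its values were seen, had changes of 0.29 and 0.49 at 24 h on its 2 probesets, and neither was called.

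**Figure D3:**
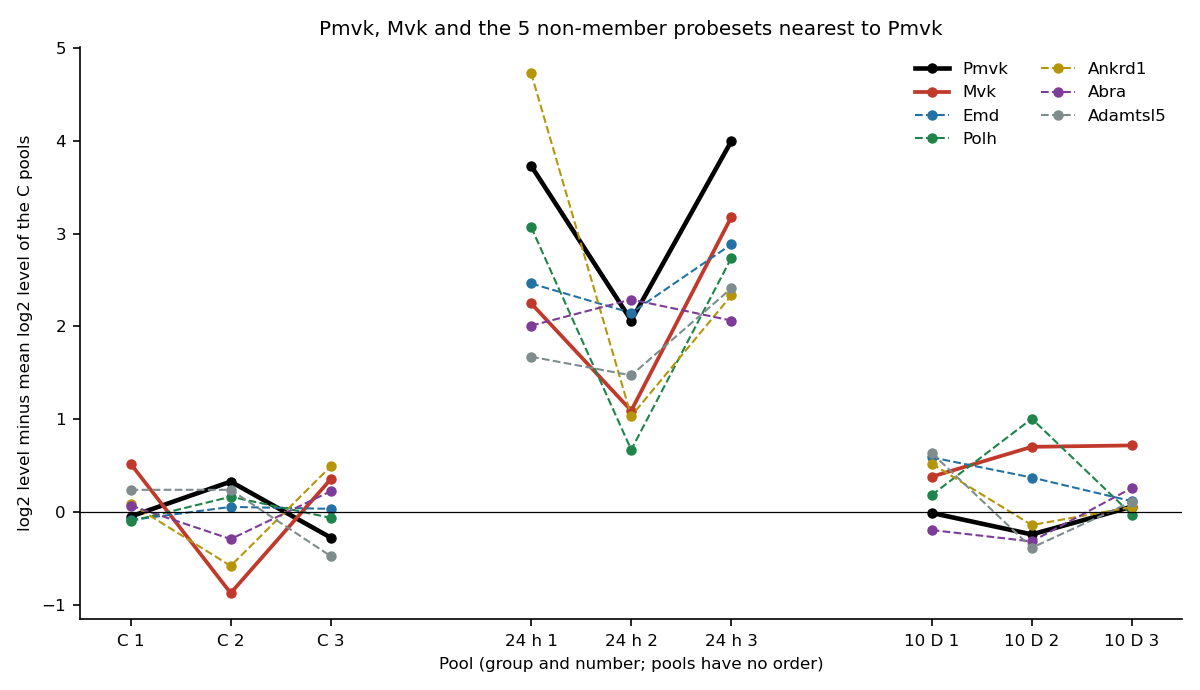
Log2 level in each of the 9 pools minus the mean log2 level of the C pools, for Pmvk, Mvk and the 5 probesets of other genes nearest to Pmvk; the lines join pools of a group for legibility and pools have no order. All 7 probesets are above their C mean in every 24 h pool, and all of them but Abra are lowest there in pool 2.

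Outside the 8 enzymes, the rest of sterol metabolism gave no call, and few probesets of any kind were called. A list of 48 further genes was set down by role, of which 39 had a tested probeset and the others are not analysed here. For each gene the brightest tested probeset was used. By limma with Benjamini-Hochberg adjustment over all probesets, 0 of 39 were called at 24 h, 0 at 10 D and 0 between 10 D and 24 h. The shares of all probesets called were 0.456%, 0% and 0.0504%, so nothing is read from these counts. At an unadjusted p under 0.05 the counts were 2, 1 and 1, beside 2887, 1540 and 1848 of all 33752 tested probesets. The smallest adjusted p at 24 h was 0.50. The median log2 change was 0.05 at 24 h and 0.06 at 10 D, and 31 and 36 of the 39 lay within 0.5 of 0. Pools did not overlap between 24 h and C for 7 of 39 genes, 3 higher and 4 lower, beside 16.8% of all probesets, and between 10 D and C for 4, all higher, beside 10.3% of all. Both shares are near those of all probesets, and nothing is read from them.

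Among the 9 genes of the HMG-CoA and isoprenoid branch the changes at 24 h ran from -0.42 to 0.44. Fnta, the alpha subunit of 2 protein prenyltransferases, had a change of 0.44 (SE 0.34, limma adjusted p = 0.79). Coq2, the prenyltransferase of ubiquinone synthesis, had levels of 19.0, 16.1 and 17.8 in C and 13.7, 11.3 and 14.5 at 24 h. All its 24 h pools were below all C pools, with a change of -0.42 (SE 0.27, limma adjusted p = 0.71).

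Among the 10 genes of the steps after squalene the changes at 24 h ran from -0.98 to 0.60. Lss, lanosterol synthase, which acts directly after Sqle, had levels of 0.494, 0.734 and 0.928 in C, 0.778, 1.17 and 1.30 at 24 h, with 0.999, 1.20 and 1.30 at 10 D. Its change was 0.60 at 24 h (SE 0.32, limma adjusted p = 0.65), and at 10 D it was 0.74 with pools that did not overlap (SE 0.32, limma adjusted p = 1.0). Lbr, the lamin B receptor, which also has sterol reductase activity, had -0.33 at 24 h (SE 0.35, limma adjusted p = 0.86).

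The 7 SREBP regulators had a median change of -0.02 at 24 h. Srebf1, which encodes SREBP-1, had levels of 10.1, 7.75 and 7.97 in C, 4.75, 6.85 and 6.11 at 24 h, with 5.79, 9.71 and 7.70 at 10 D. Its 24 h pools were below all C pools, and the change was -0.55 (SE 0.25, limma adjusted p = 0.59). Mbtps2, the protease that makes the second cut in SREBP release, had levels of 5.87, 4.52 and 4.59 in C and 6.51, 9.55 and 6.62 at 24 h. Its 24 h pools were above all C pools, and the change was 0.58 (SE 0.25, limma adjusted p = 0.55).

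Sterol uptake and transport were covered by 7 tested genes, and storage and efflux by 6. Mylip, a ubiquitin ligase that limits lipoprotein uptake, had levels of 4.57, 5.71 and 5.65 in C, 3.61, 3.68 and 2.82 at 24 h, with 6.68, 3.60 and 4.98 at 10 D. Its 24 h pools were below all C pools, with a change of -0.66 (SE 0.26, limma adjusted p = 0.50), the smallest adjusted p of the 39. Abca1, the transporter that passes cholesterol to lipoproteins, had a change of -0.60 (SE 0.28, limma adjusted p = 0.60). Osbp, an oxysterol-binding protein, had -0.42 (SE 0.27, limma adjusted p = 0.73). Npc2, which binds cholesterol in lysosomes, had -0.25 (SE 0.36, limma adjusted p = 0.90). None of these changes passed the test.

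**Figure D4:**
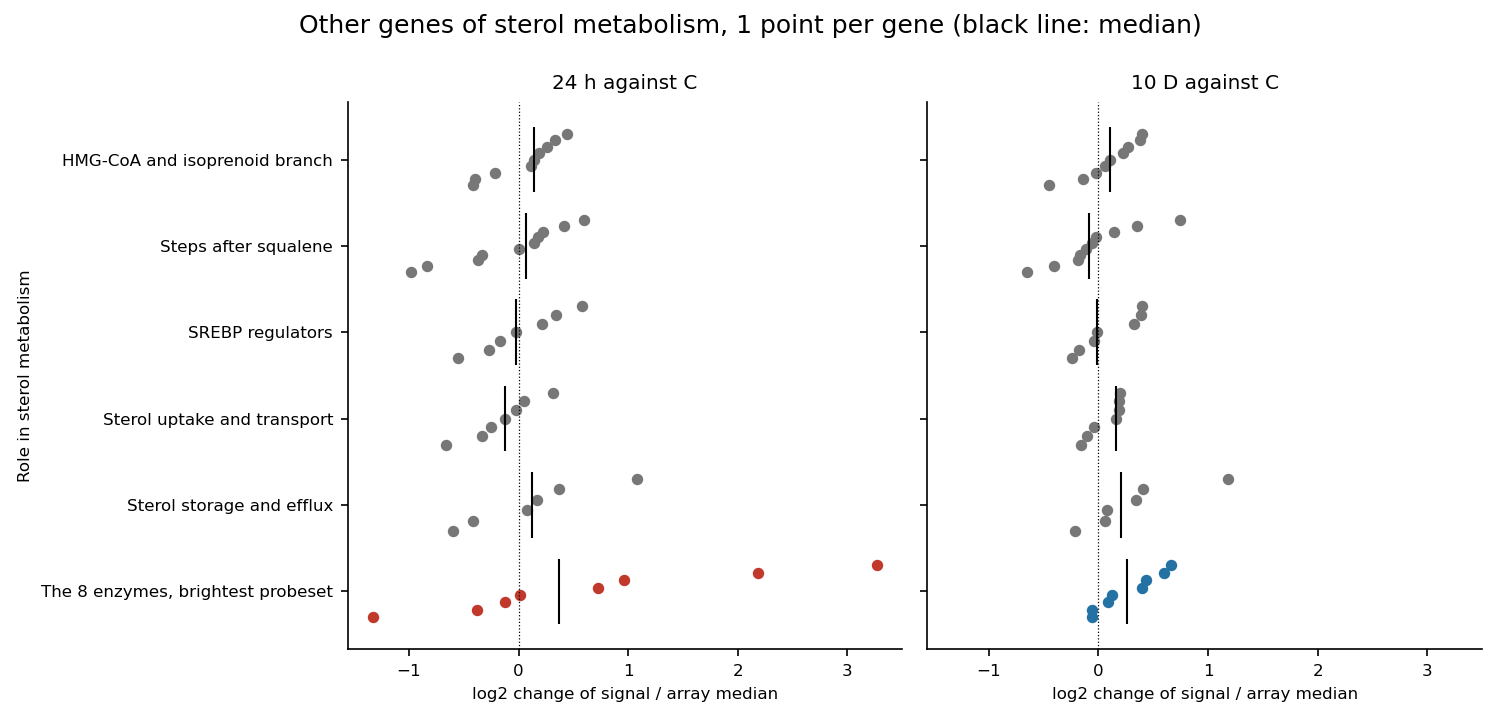
Log2 change at 24 h (left) and 10 D (right) against C of the 39 other genes of sterol metabolism, by role, and of the brightest probeset of each of the 8 enzymes (coloured), with 1 point per gene and the median as a black line. The other genes lie between -0.98 and 1.08 at 24 h, and the 8 enzymes between -1.33 and 3.27. The enzymes were chosen with these results in view, and Mvk was tested only through its 24 h pools, so the ranges are not compared.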

How the data were processed

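In the study 9 pools in 3 groups were each measured on 2 chips, MOE430A and MOE430B. The labels give the group and the replicate number, and of the chips they name only chip B. The deposited values are intensities on a linear scale that the authors obtained with MAS 5.0, with no scaling between arrays. Array medians ran from 30.8 to 88.4 on MOE430A and from 13.2 to 37.1 on MOE430B, and with arrays it is their number that limits the precision. The members and lists were chosen with earlier results of these data known.

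Each signal was divided by the array median, 18 values of 0 were set to 0.05, and log2 was taken. Probesets were named by the platform annotation, with symbols brought up to date by Entrez identifier: 34945 probesets had 1 symbol, 932 several and 9160 none listed. Where a probeset was on both chips (100 cases) only MOE430A was used. The test took probesets with a mean log2 signal at or above percentile 25 of their chip, 16969 on MOE430A and 16783 on MOE430B. The 3 groups were fitted with limma 3.58.1 in R 4.3.3 (lmFit, eBayes with an intensity trend, 6 residual degrees of freedom from 9 pools). P-values were two-sided and adjusted over both chips (Benjamini-Hochberg), with the 10% false discovery rate of the study as threshold. They measure the spread between pools. The study assigned treatment by cage and mice to pools at random within a treatment, so pools of a group may share cages. The scripts were tested on simulated data. No batch is named in the labels.

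Named genes were the 8 enzymes, in each role list the brightest gene and that with the smallest unadjusted p at 24 h, and the 5 nearest to Pmvk. Pbxip1 and the markers named with values were picked after these were seen. Alternatives covered floor, filter, scaling, variance model, adjustment, replicate block, shared probesets and left-out pools. Figures were drawn with matplotlib. A few items of the lists are not reported here.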

Additional observations from a re-analysis of the deposited data

Results flagged for a closer look

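The value flagged was the level of Pmvk at 10 D against 24 h. The log2 level was lower by 3.33 at 10 D than at 24 h (log2 change -3.33, SE 0.44, n = 3 pools each), with every 10 D pool below every 24 h pool. This contrast was in view when the gene was chosen, so it is given as a value and not as a test. The limma call of this difference held in 13 of 22 alternatives tried.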

How the results depend on the processing

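Precision was limited by 3 pools per group. At 24 h against C 1 member probeset was called, beside 0.456% of all probesets. When 16 was added to the signal, with a filter at the 50th percentile and with each chip adjusted on its own, 2 were called. They were Pmvk and Fdft1 1438322_x_at each time, and the shares of all probesets called also rose, to 0.551%, 1.00% and 0.560%. Without moderation of the variance 0 were called, beside 0.296%. Leaving out 1 pool gave 0 to 3. The count was 0 without C pool 1, 2 or 3 or 24 h pool 3, beside 0.0711%, 0.0711%, 0.107% and 0.0711% of all probesets. It was 3 without 10 D pool 2, beside 1.29%. At 10 D against 24 h 1 was called, beside 0.0504% of all probesets. Without an intensity trend and without moderation 0 were called, beside 0.0148% and 0.0533%. Leaving out 1 pool gave 0 to 1, beside 0.00296% to 0.222%. With pool 2 of both treated groups left out, an alternative chosen after seeing the data, 3 were called at 24 h, beside 1.77% of all probesets. They were Pmvk, Fdft1 and Mvk, whose probeset was bright enough to be tested only through its 24 h pools and had to differ in that direction. At 10 D against 24 h 2 were called (Pmvk and Fdft1), beside 0.305%. The median log2 change at 24 h was then 0.34 in place of 0.02. Leaving out 1 pool gave 0.01 to 0.34 (the latter without 24 h pool 2) for that median. At 10 D against C 0 member probesets were called in each alternative, and so were 0 of the other pathway genes in each contrast, where few probesets of any kind were called. Where the probeset of largest spread replaced the brightest, the change at 24 h was 0.02 for Hmgcs1 and 1.28 for Mvd. The causes were not tested.

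Pool numbers are shared between the groups. With the number as a replicate block, 2 member probesets were called at 24 h, beside 0.619% of all probesets. No other count of called members or pathway genes changed. Pools with the same number did not deviate together throughout: 18 correlations ran from -0.07 to 0.56, 4 were above 0.1, and 8 pairs correlated best with their own number, so the numbers were not taken to pair the pools. All 4 above 0.1 were between 24 h and 10 D, at numbers 1 and 2 (0.39 and 0.56 on MOE430A, 0.11 and 0.16 on MOE430B), so pools of these numbers deviated together in the treated groups, which touches 10 D against 24 h.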
